A study of Mus musculus with 4 samples.

Results

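The neurotrophins and the receptors of the neurotrophin and GDNF families were examined in cultured mouse dorsal root ganglia through 8 genes chosen by symbol: the ligands Bdnf and Ntf3, the p75 receptor Ngfr, the Trk receptors Ntrk2 and Ntrk3, and Ret, Gfra1 and Gfra3 of the GDNF receptor system. All 8 symbols were found, once each, among the 23282 rows of the count tables. Ganglia were taken from C57BL/6 mouse embryos at embryonic day 13, grown as explants on Matrigel and moved from growth medium to myelination medium at day in vitro (DIV) 8, whichever group they belonged to. The groups were electrically stimulated (ES) ganglia at 19 DIV, control ganglia at 19 DIV, ES ganglia at 11 DIV and control ganglia at 11 DIV, with 1 library each. ES ganglia had received 20 Hz stimulation at 50 mV/mm for 1 h at 10 DIV, so they were harvested 9 days or 1 day later, and control ganglia had received none. Each library held the pooled RNA of 3 explants, and whole explants contain neurons, glia and connective tissue cells together. No group was replicated, so every ratio and interval below compares 2 libraries and not 2 conditions. Each library enters 1 comparison between treatments and 1 between days, and these comparisons are therefore not independent.

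Neurotrophins are secreted proteins that keep sensory neurons alive during development and later adjust their growth and excitability. BDNF acts through TrkB (Ntrk2) and NT-3 through TrkC (Ntrk3), and p75 (Ngfr) binds all neurotrophins with lower selectivity. GDNF family ligands bind a GFRα co-receptor anchored in the membrane, and the complex then activates the kinase Ret. In the dorsal root ganglion TrkB and TrkC mark mechanoreceptors and proprioceptors, Ret marks several subtypes that include non-peptidergic nociceptors, and p75 is made by neurons and by Schwann cells.

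Bdnf is transcribed in neurons from several promoters, some of which respond to electrical activity through the cyclic AMP response element (CRE), so promoter sequence is shown for the member with the highest ES to control ratio at 11 DIV that had reads in both libraries. RefSeq windows of 300 bases, from 250 before to 50 after a transcript start (GRCm38.p6), matched 5 of the 8 members. Both strands were searched for the CRE (TGACGTCA), for its first letters alone (TGACG, which also lie within every full CRE), for the GC box (GGGCGG) and for the RUNX motif (TGNGGT). Of 32851 windows of this length, 1.79% held the full CRE, 20.8% TGACG, 35.7% a GC box and 45.8% the RUNX letters. None of the 7 Bdnf windows held an exact match to the full CRE, and TGACG stood in 1 of them, at chr2:109692186-109692485 on the plus strand. There the match is part of TCACGTCA, which differs from the full CRE in 1 letter. Only exact matches were searched, so a window without a match is not shown to lack a CRE. Ngfr is shown for the steadiest level among the members, and its window (chr11:95587649-95587948, minus strand) held 4 GC boxes. Ntrk2 is shown because both Trk receptors were higher at 19 DIV and it is the Trk receptor with a window, which lies at chr13:58806319-58806618 on the plus strand. That window held 2 matches to the letters of RUNX factors, which include Runx3, a repressor of Ntrk2 in mouse proprioceptors. Capitals mark TGACG (reverse strand) in Bdnf, GC boxes in Ngfr and RUNX letters in Ntrk2. The tables hold 1 value per gene from tags at transcript ends, so they do not say which promoter was used.
Bdnf: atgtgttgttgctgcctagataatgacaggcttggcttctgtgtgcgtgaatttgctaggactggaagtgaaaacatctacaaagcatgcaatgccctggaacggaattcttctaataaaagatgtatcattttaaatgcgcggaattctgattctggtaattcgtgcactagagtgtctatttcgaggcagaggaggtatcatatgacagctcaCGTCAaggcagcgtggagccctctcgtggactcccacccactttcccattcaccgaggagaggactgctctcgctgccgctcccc
Ngfr: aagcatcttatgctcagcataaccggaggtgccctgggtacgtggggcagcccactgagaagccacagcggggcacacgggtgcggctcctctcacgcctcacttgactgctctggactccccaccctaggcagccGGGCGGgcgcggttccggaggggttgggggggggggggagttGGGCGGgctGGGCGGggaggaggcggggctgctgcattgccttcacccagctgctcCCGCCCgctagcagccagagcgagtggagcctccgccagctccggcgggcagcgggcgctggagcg
Ntrk2: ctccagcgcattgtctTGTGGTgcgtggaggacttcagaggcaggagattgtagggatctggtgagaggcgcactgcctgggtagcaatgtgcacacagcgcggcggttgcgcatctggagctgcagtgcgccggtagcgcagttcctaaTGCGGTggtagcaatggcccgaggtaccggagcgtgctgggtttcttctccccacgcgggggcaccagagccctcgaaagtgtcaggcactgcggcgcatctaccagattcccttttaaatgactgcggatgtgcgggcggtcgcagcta

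Libraries held 7830950 (ES, 19 DIV), 6730614 (control, 19 DIV), 5782834 (ES, 11 DIV) and 6197537 reads (control, 11 DIV), and levels are given as CPM, the reads divided by library size with TMM scaling. The counts were clumped: where the other 3 libraries put a gene at 200 to 1000 reads, 9.39%, 6.39%, 5.76% and 4.10% of the genes had 0 reads in these 4 libraries in turn. If those zeros were all sampling, 1 sampled molecule stood for 104 to 158 reads. Most ratios of the members are therefore given with a spread-adjusted 95% interval, for which both counts were divided by a spread factor of 208 to 258. That factor is the median squared deviation between the 2 libraries compared, over its counting expectation. Without replicates it also takes in true differences between the libraries, so it does not measure technical spread alone. Ratios and counts of 0 given without an interval carry the same spread, and such a 0 is not shown to be absence. A gene was called by the size rule when the libraries differed at least 2-fold, the exact counting interval excluded equality and the higher library had at least 50 reads. It was called by the spread-adjusted rule when the 99% interval on the divided counts excluded equality as well. Of all genes tested in a comparison, the size rule called 58.6% to 61.4% and the spread-adjusted rule 0.259% to 0.618%. The labelled tissue matched its markers in part. All 12 neuron markers had reads in at least 3 libraries, and of the Schwann and satellite glia markers Sox10 and Mbp had reads in all 4. Erbb3, a receptor of Schwann cells, had only 2 reads in ES at 19 DIV and 0 in every other library. Cdh19 had 106 reads in control at 19 DIV and 0 in every other library. Of cell types beside the ganglion proper, macrophage markers summed to 56.3 to 120 CPM, endothelial markers to 25.2 to 48.3, muscle and mural markers to 92.7 to 270 and spinal cord markers to 0 to 3.80, and Aif1, Pecam1 and Olig2 had 0 reads in every library.

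**Figure D1:**
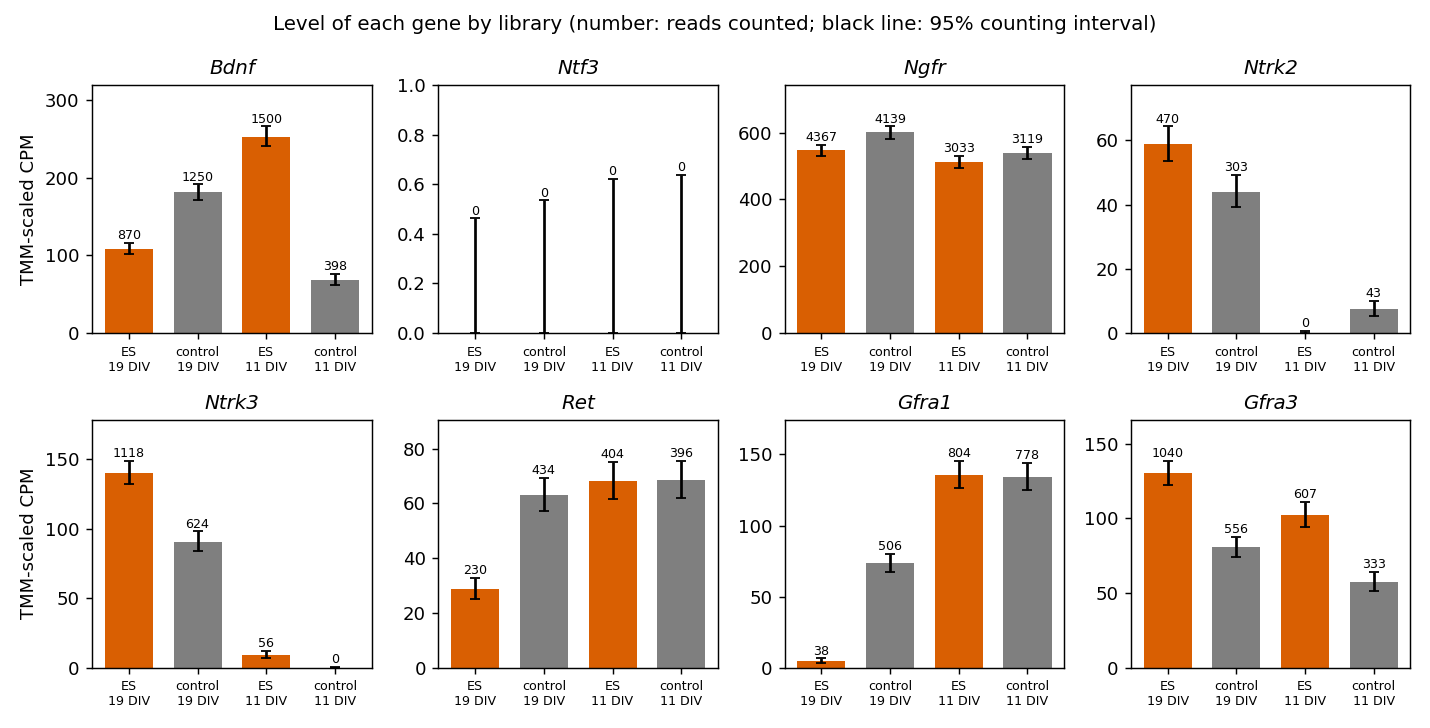
Level of each of the 8 genes in the 4 libraries, as TMM-scaled CPM on a linear axis that starts at 0 and differs between panels. Orange bars are ES and grey bars control libraries, black lines are exact 95% counting intervals, and the number above a bar is its reads. Ntrk2 and Ntrk3 are higher in both 19 DIV libraries, Ntf3 has 0 reads throughout, and Ngfr stays between 512 and 601 CPM.

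Among the ligands, Bdnf was measured in every library and Ntf3 in none. Bdnf, the ligand of TrkB (protein-coding, chromosome 2, 109674700 to 109727007 in GRCm38), reached 870 reads in the ES and 1250 in the control library at 19 DIV, and 1500 in ES and 398 in control at 11 DIV. On the CPM scale these were 109 and 181 at 19 DIV and 253 and 68.7 at 11 DIV. The ES library was thus the higher of the pair at 11 DIV and the lower at 19 DIV.

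At 11 DIV Bdnf in ES was 3.69 times control (counting interval 3.30 to 4.13), and the size rule called it higher. The spread-adjusted interval, 0.694 to 38.7, included equality. At 19 DIV it was 0.601 times control (spread-adjusted 0.114 to 2.77) and no rule called it. At 19 DIV the level was 0.430 times that at 11 DIV in ES ganglia (0.0770 to 1.96) and 2.64 times in control ganglia (0.420 to 34.2), so the size rule called Bdnf in opposite directions in the 2 treatments. Opposite calls of this kind were made for 17.6% of the 8508 genes tested in both pairs. The reads of Bdnf stood for about 3.83 to 12.5 sampled molecules per library. An antisense gene, Gm45346, overlaps its exons, and the use of strand in counting is not stated in the sources used here. Reads from the 2 cannot be told apart.

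In the 19 DIV pair the summed level of the 12 neuron markers was 1891 CPM in ES and 4528 in control, 0.418 times, on the same side as Bdnf, and the size rule called 0 of the 12 higher and 8 lower, 3 of them also by the spread-adjusted rule (29.4% of all genes were called higher and 31.3% lower by the size rule). In the 11 DIV pair it was 4626 CPM in ES and 3351 in control, 1.38 times, with 4 called higher and 0 lower (28.9% and 29.6% of all genes). The part of neuron content in the Bdnf values was not tested. In bulk RNA, fewer cells of a type and less RNA per cell cannot be told apart.

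Ntf3, which encodes NT-3, the ligand of TrkC (chromosome 6, 126101412 to 126166910), had 0 reads in all 4 libraries. A count of 0 allows up to 3 reads at these depths, which corresponded to 0.376 CPM in ES and 0.435 in control at 19 DIV, and to 0.506 in ES and 0.518 in control at 11 DIV. These limits cover counting error only. The counts were clumped, with 1 sampled molecule standing for 104 to 158 reads if the zeros were all sampling, so these limits are too low. Ntf3 was thus not detectable at these depths and is not shown to be absent.

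Ngfr, the p75 receptor (chromosome 11, 95568818 to 95587735), had the most reads of the 8 genes and the steadiest level. It reached 4367 reads in the ES and 4139 in the control library at 19 DIV, and 3033 in ES and 3119 in control at 11 DIV. As CPM these were 547 and 601 at 19 DIV and 512 and 538 at 11 DIV. The 4 libraries lay close together, and neither rule called Ngfr in any of the 4 comparisons.

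ES ganglia had 0.911 times the Ngfr of control ganglia at 19 DIV (spread-adjusted 0.449 to 1.86) and 0.951 times at 11 DIV (0.430 to 2.10). With scaling by total counts, the log2 difference at 11 DIV was 0.06 in place of -0.07, so its direction depends on the scaling. At 19 DIV the level was 1.07 times that at 11 DIV in ES (0.478 to 2.47) and 1.12 times in control ganglia (0.521 to 2.44). Over the same 4 libraries the summed level of 10 Schwann and satellite glia markers other than Ngfr and Gfra3 was 8702 CPM in ES and 10278 in control at 19 DIV, and 6946 in ES and 4012 in control at 11 DIV, ratios between days of 1.25 in ES and 2.56 in control.

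Both Trk receptors were higher in the 2 libraries at 19 DIV than in the 2 at 11 DIV. Ntrk3, the receptor of NT-3 (chromosome 7, 78175959 to 78738012), reached 1118 reads in the ES and 624 in the control library at 19 DIV, and 56 in ES and 0 in control at 11 DIV. As CPM these were 140 and 90.5 at 19 DIV and 9.45 and 0 at 11 DIV. Both 19 DIV libraries thus stood above both 11 DIV libraries, which held for 15.6% of the 11401 genes with at least 50 reads in a library. Between the same days the fibroblast marker sum was 1.94 times in ES and 1.87 times in control ganglia, the Schwann and satellite glia sum 1.25 times in ES and 2.56 times in control, and the neuron sum 0.409 times in ES and 1.35 times in control. The part of these cell types in the Trk receptor values was not tested.

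In ES ganglia Ntrk3 at 19 DIV was 14.8 times its 11 DIV level (counting interval 11.3 to 19.7). In control ganglia it was at least 175-fold higher when the 0 at 11 DIV is put at 3 reads, a figure that is no bound once reads are clumped. Both pairs were called by the size rule and neither by the spread-adjusted rule, and the spread-adjusted lower ends were 0.480 in ES and 0.291 in control. At 11 DIV the ES library held 56 reads against 0 in control, at least 18.3-fold higher at 3 reads and called by the size rule, although 56 reads were less than 1 sampled molecule (0.467). At 19 DIV Ntrk3 in ES was 1.55 times control (0.279 to 11.4) and no rule called it.

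Ntrk2, the receptor of BDNF (chromosome 13, 58806569 to 59133970), reached 470 reads in the ES and 303 in the control library at 19 DIV, and 0 in ES and 43 in control at 11 DIV. As CPM these were 58.9 and 44.0 at 19 DIV and 0 and 7.42 at 11 DIV. Again both 19 DIV libraries were above both 11 DIV libraries. In ES ganglia the 19 DIV level was at least 116-fold higher than that at 11 DIV with the 0 put at 3 reads, and in control ganglia it was 5.92 times (counting interval 4.29 to 8.35). The spread-adjusted intervals of both included equality, and the reads at 19 DIV stood for 2.98 molecules in ES and 2.39 in control.

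Between treatments, Ntrk2 in ES was 1.34 times control at 19 DIV (spread-adjusted 0.0798 to 40.5) and stayed under 50 reads at 11 DIV. Ntrk2 and Ntrk3 were the only members that the size rule called the same way in both treatments, and each passed the minimum of 50 reads in these pairs through the 19 DIV library, where it was high. Among the 8508 genes tested in both pairs, 9.84% were called higher at 19 DIV in both and 9.14% lower in both. Between ES and control, no member was called the same way on both days, where 8.09% of 8460 genes were higher on both, 8.65% lower on both and 18.6% opposite. Ntrk2 and Ntrk3 each make full-length and truncated receptors, which tables with 1 value per symbol do not separate.

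In the fit of treatment and day over all 4 libraries (edgeR's quasi-likelihood test, 1 residual degree of freedom), Ntrk3 had a log2 fold change between days of 6.57 with an unadjusted p of 0.0371 and an adjusted p of 1. These fold changes rest on counts of 0 and depend on the prior count. Ntrk2 had 6.07, with an unadjusted p of 0.247 and an adjusted p of 1. The other 5 members tested had log2 fold changes between days from -2.84 (Gfra1, unadjusted p 0.0888) to 0.41 (Gfra3, unadjusted p 0.634), each with an adjusted p of 1 in edgeR's test. For Gfra1 the log2 fold change between days was -1.41 with limma and voom (adjusted p 0.936) and -2.82 with DESeq2 (adjusted p 0.0537). No gene passed an adjusted p of 0.05 in that test (0% of 10034 for either factor), with 202 (2.01%) for day and 109 (1.09%) for treatment at an unadjusted p under 0.05. limma with voom called 0 genes as well, with 699 for day and 565 for treatment at an unadjusted p under 0.05. DESeq2 called 843 genes for day (8.4%) and 509 for treatment (5.07%), and among those for day were Ntrk3 (adjusted p 0.000391) and Ntrk2 (adjusted p 0.0481). Over the alternatives the adjusted p for day ran from 0.000391 to 1 in Ntrk3 and from 0.0481 to 1 in Ntrk2.

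**Figure D2:**
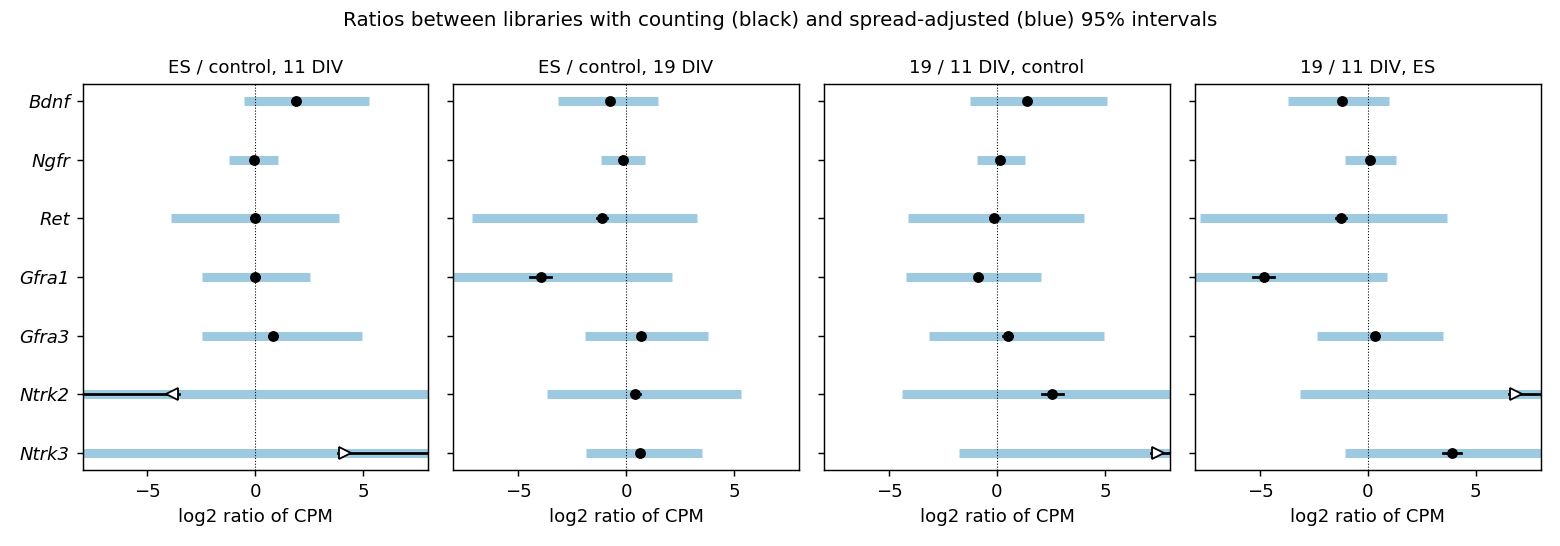
Ratio of CPM between 2 libraries on a log2 axis, for the 7 genes with reads and the 4 comparisons. Dots are ratios, open triangles put a count of 0 at 3 reads and point away from equality, black lines are 95% counting intervals, and blue bars are spread-adjusted 95% intervals, which end at the axis limits of -8 and 8 where they run beyond. Every blue bar crosses the dotted line of equality.

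The GDNF family receptors did not share 1 pattern. Ret, the shared kinase (chromosome 6, 118151745 to 118197718), reached 230 reads in the ES and 434 in the control library at 19 DIV, and 404 in ES and 396 in control at 11 DIV. As CPM these were 28.8 and 63.0 at 19 DIV and 68.2 and 68.4 at 11 DIV. A single library, ES at 19 DIV, was lower than the other 3. Its level was 0.458 times control at 19 DIV (counting interval 0.388 to 0.538) and 0.422 times that of ES ganglia at 11 DIV (0.358 to 0.498), and the size rule called both. The spread-adjusted intervals included equality, with upper ends of 9.93 and 12.6. At 11 DIV the ES to control ratio was 0.998 (spread-adjusted 0.0680 to 14.9), and in control ganglia the 19 DIV level was 0.921 times that at 11 DIV (0.0579 to 16.3).

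Gfra1, the co-receptor of GDNF (chromosome 19, 58235604 to 58455909), was low in the same library. It reached 38 reads in the ES and 506 in the control library at 19 DIV, and 804 in ES and 778 in control at 11 DIV. As CPM these were 4.76 and 73.4 at 19 DIV and 136 and 134 at 11 DIV. The ES library at 19 DIV had 0.0648 times the control level (counting interval 0.0453 to 0.0902) and 0.0351 times the level of ES ganglia at 11 DIV (0.0246 to 0.0486), and both were called lower by the size rule. Both spread-adjusted intervals included equality, with upper ends of 4.43 and 1.87. At 11 DIV the ratio was 1.01 (spread-adjusted 0.180 to 5.76). Control ganglia at 19 DIV had 0.547 times their 11 DIV level, under 2-fold. An antisense gene, Gm16277, overlaps exons of Gfra1, and its reads cannot be told apart.

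Ret and Gfra1 were lowest in the library in which the summed neuron markers were lowest too, 1891 CPM in ES at 19 DIV against 3351 to 4626 CPM in the other 3. Set against that of control at 19 DIV, the neuron marker sum was 0.418 times, Ret 0.458 times and Gfra1 0.0648 times. Of the neuron markers Snap25 alone was at 0 in that library. The part of neuron content in these values was not tested. The fibroblast markers went the other way, with 13067 CPM in ES and 9359 in control at 19 DIV.

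Gfra3, the co-receptor of artemin (chromosome 18, 34689898 to 34720387), which is made by nociceptors and by developing Schwann cells, was higher in the ES library on both days. It reached 1040 reads in the ES and 556 in the control library at 19 DIV, and 607 in ES and 333 in control at 11 DIV. As CPM these were 130 and 80.7 at 19 DIV and 103 and 57.5 at 11 DIV, so both ES libraries stood above both control libraries. The ratios were 1.61 at 19 DIV (counting interval 1.46 to 1.79, spread-adjusted 0.266 to 13.9) and 1.78 at 11 DIV (1.56 to 2.04, and 0.180 to 30.8). Neither reached 2-fold. The fibroblast marker sum in ES was 1.40 times control at 19 DIV and 1.35 times at 11 DIV, and the muscle and mural sum 2.91 and 2.21 times. The Schwann and satellite glia sum was 0.847 times at 19 DIV and 1.73 times at 11 DIV, and the neuron sum 0.418 and 1.38 times. The part of these cell types in the Gfra3 values was not tested. In the fit over 4 libraries the log2 fold change for ES was 0.76 with an unadjusted p of 0.393 and an adjusted p of 1 by edgeR's quasi-likelihood test.

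Gfra3 was the only member whose ES and control libraries did not overlap, where 28.1% of the 11401 genes with at least 50 reads in a library did not (13.6% higher and 14.5% lower in ES). By day, 5 of the 7 members with reads did not overlap (Ngfr, Ntrk2 and Ntrk3 higher at 19 DIV, Ret and Gfra1 lower), where 31.7% of the genes did not (15.6% higher and 16.1% lower at 19 DIV). Ret is among the 5 only with some scalings: with total counts its log2 difference between days in control ganglia was 0.01 in place of -0.12, and its days overlapped. With 2 libraries against 2, an exact two-sided permutation test cannot go below 0.333.

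Size-rule calls were common in these libraries, so the members' counts are given beside those of all genes. Between ES and control at 19 DIV, 2 of 7 tested members were called (0 higher, and Ret and Gfra1 lower), against 60.6% of all 10027 tested genes (29.4% higher, 31.3% lower). At 11 DIV it was 2 of 6 (Bdnf and Ntrk3 higher, 0 lower), against 58.6% of 9834 (28.9% higher, 29.6% lower). Between days in ES ganglia 5 of 7 were called (Ntrk2 and Ntrk3 higher, Bdnf, Ret and Gfra1 lower), against 61.4% of 9884 (30.9% higher, 30.5% lower). In control ganglia 3 of 7 were called (Bdnf, Ntrk2 and Ntrk3 higher, 0 lower), against 60.8% of 10025 (30.9% higher, 29.8% lower). The spread-adjusted rule called 0 members in every comparison, against 0.259% of genes for ES at 19 DIV, 0.315% for ES at 11 DIV, 0.425% between days in ES and 0.618% in control ganglia. The median log2 difference of the 7 members with reads was -0.13 for ES over control at 19 DIV and 0.02 at 11 DIV, and for 19 over 11 DIV it was 0.10 in ES and 0.49 in control ganglia. That of the 11665 genes averaging 10 reads or more was 0.00 in each comparison.

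Other neurotrophin ligands and receptors, co-receptors of the sortilin family and p75 partners made a list of 14 genes, of which 13 were in the tables. Between ES and control, 2 were higher and 6 lower of 8 tested at 19 DIV, and 6 higher and 1 lower of 10 tested at 11 DIV, at the shares of all genes given above. The median log2 differences were -1.5 at 19 DIV and 0.83 at 11 DIV over 12 genes, against 0.00 for all genes. Ngfrap1, an adaptor that binds p75, reached 2094 reads in the ES and 4209 in the control library at 19 DIV, and 5984 in ES and 1896 in control at 11 DIV. It was 3.09 times control at 11 DIV (spread-adjusted 1.43 to 7.38) and the only gene of this list called by the spread-adjusted rule, there as higher and between days in ES ganglia as lower (0.260 times, 0.101 to 0.598). Maged1, another p75 partner, was at 0.317 times control at 19 DIV (0.0979 to 0.875, not called at the 99% level of the spread-adjusted rule) and 0.982 times at 11 DIV.

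Sorcs1, a receptor of the sortilin family, reached 346 reads in the ES and 1071 in the control library at 19 DIV, and 402 in ES and 0 in control at 11 DIV. Traf6, a signalling adaptor of p75, had 0 reads in both ES libraries, against 340 in control at 19 DIV and 65 in control at 11 DIV.

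Of the 10 other genes of the GDNF family list, 8 had reads. Between ES and control none of 6 tested was called at 19 DIV, and 1 was higher and 2 lower of 6 at 11 DIV, against 60.6% and 58.6% of all genes called in either direction. At 19 DIV against 11 DIV, 2 were higher and 0 lower of 6 in ES ganglia, and 2 higher and 1 lower of 7 in control ganglia, against 61.4% and 60.8% of all genes in either direction. Artn, which encodes artemin, the ligand of GFRα3, reached 318 reads in the ES and 405 in the control library at 19 DIV, and 0 in ES and 14 in control at 11 DIV. Gdnf, the ligand of GFRα1, reached 337 reads in the ES and 186 in the control library at 19 DIV, and 0 in ES and 117 in control at 11 DIV. Neither was called by the spread-adjusted rule, and the sole called difference of Gdnf between days was in ES ganglia. Ncam1, a cell adhesion molecule that also binds GDNF, was at 839 CPM in both libraries at 19 DIV, and at 800 CPM in ES and 736 in control at 11 DIV. Sdc3, a syndecan that binds GDNF, had 1030 and 837 reads in ES and control at 19 DIV, and 667 and 198 at 11 DIV.

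**Figure D3:**
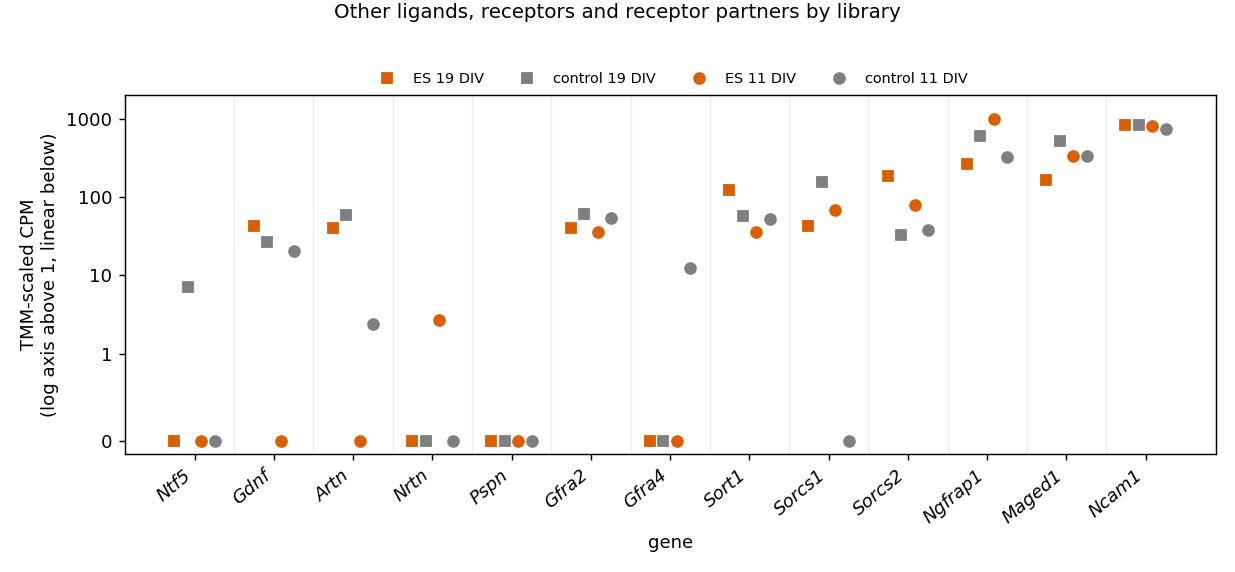
TMM-scaled CPM of 13 further ligands, receptors and receptor partners, with squares for 19 DIV and circles for 11 DIV, orange for ES and grey for control. The vertical axis is logarithmic above 1 and linear below. Gdnf and Artn sit highest at 19 DIV, and Ncam1 lies between 736 and 839 CPM in the 4 libraries.

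Downstream of the receptors, 22 adaptors and enzymes that bind activated Trk or Ret were listed. Between ES and control, 5 were higher and 2 lower of 14 tested at 19 DIV, and 5 higher and 4 lower of 15 at 11 DIV, with medians of 0.13 and -0.39 on the log2 scale. For this and the lists that follow, the shares of all genes called were 29.4% higher and 31.3% lower at 19 DIV, and 28.9% higher and 29.6% lower at 11 DIV. Grb2, the adaptor that couples receptors to Ras, was at 0.887 times control at 19 DIV and 0.765 times at 11 DIV, and Dok4, a substrate of Ret, at 1.00 and 2.31 times. The spread-adjusted interval of Dok4 at 11 DIV was 0.561 to 12.7. Gab2 reached 269 reads in the ES and 0 in the control library at 19 DIV, and 539 and 839 at 11 DIV. Sh2b2 had 0 reads in both libraries at 19 DIV, and 318 in ES and 110 in control at 11 DIV.

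Genes that receptor tyrosine kinases and ERK switch on made a list of 17. At 19 DIV 4 were higher and 3 lower of 12 tested between ES and control. At 11 DIV 1 was higher and 9 were lower of 15, with a median log2 difference of -1.08 over 16 genes, against 0.00 over all genes, and the spread-adjusted rule called none of them. Between days, 0 were higher and 7 lower of 15 in control ganglia, where 30.9% of all genes were higher and 29.8% lower. In ES ganglia 2 were higher and 2 lower of 12, where 30.9% of all genes were higher and 30.5% lower. The control library at 11 DIV is part of both comparisons in which most calls were lower. Dusp6, a phosphatase that limits ERK, reached 2360 reads in the ES and 2071 in the control library at 19 DIV and 1361 and 1186 at 11 DIV, with ratios of 0.984 and 1.12. Vgf, a secreted protein induced by neurotrophins, was at 0.146 times control at 19 DIV (spread-adjusted 0.00835 to 0.863) and 0.655 times at 11 DIV. Spred3 reached 340 reads in the ES and 0 in the control library at 19 DIV, and 18 and 275 at 11 DIV. Dusp4 had 0 reads in both at 19 DIV, and 154 in ES and 328 in control at 11 DIV.

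Proteases that cut proneurotrophins, and their inhibitors, made a list of 12, of which 3 were higher and 3 lower of 9 tested between ES and control at 19 DIV, and 4 higher and 3 lower of 9 at 11 DIV. In ES ganglia 7 of 10 were higher at 19 DIV than at 11 DIV and 3 lower, where 30.9% of all genes were higher and 30.5% lower. In control ganglia 2 of 9 were higher and 2 lower, where 30.9% of all genes were higher and 29.8% lower. Serpine2, a serpin of glia that inhibits plasmin and its activators, was called by the spread-adjusted rule between days in ES ganglia, at 2.49 times (1.40 to 4.65). It had 13929 reads there at 19 DIV and 4153 at 11 DIV. In control ganglia Serpine2 was at 902 CPM at 19 DIV and 936 at 11 DIV. Plat, tissue plasminogen activator, was at 1.92 times control at 19 DIV (0.440 to 11.3) and 0.936 times at 11 DIV. Plau had 606 reads in ES at 19 DIV and 0 in the other 3 libraries.

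**Figure D4:**
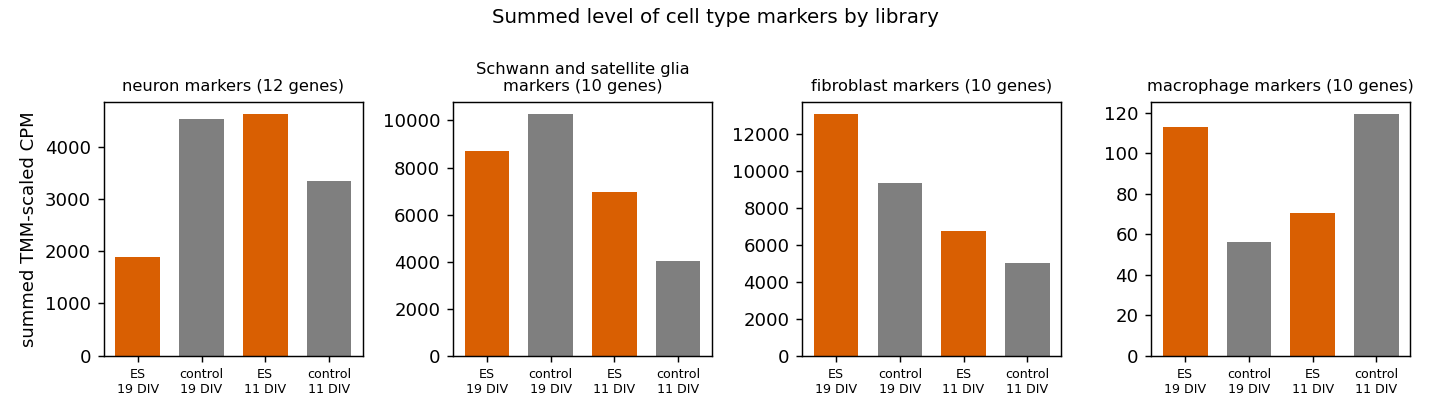
Summed TMM-scaled CPM of 4 marker lists by library, with orange bars for ES and grey bars for control, on linear axes that start at 0 and differ between panels. The neuron sum is lowest in ES at 19 DIV (1891 CPM), the fibroblast sum highest there (13067 CPM), and the macrophage sum stays between 56.3 and 119.5 CPM.

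The genes nearest in pattern were found for the 4 members averaging 500 reads or more, as those with the smallest distance between log2 CPM profiles over the 4 libraries, centred on their means, among 2963 genes. The 4 points describe these libraries only. For Bdnf they were Zmpste24 (distance 0.123), Arhgdia (0.205) and Hbegf (0.256), where the median gene was at 1.80. For Gfra1 they were Sepw1 (0.509), Eif3h (0.518) and Nudt4 (0.738), each with 69 to 96 reads in ES at 19 DIV against 548 to 1727 in control, where the median gene was at 4.09. For Gfra3 they were Dhx9 (0.0864), Pptc7 (0.108) and Taf15 (0.114), and for Ngfr Reep3 (0.0696), Tbc1d10a (0.0830) and Xpot (0.0853).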

How the data were processed

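RNA of dorsal root ganglion explants was sequenced in 4 libraries, 1 per group, prepared with a Lexogen QuantSeq kit (500 ng RNA input), which reads tags at transcript ends, per the labels' protocols. Bowtie2, bedtools and build mm10 are named, without versions, in the submitters' processing notes. The annotation and the handling of strand and duplicate reads were not given in the sources used here. The deposited values are raw counts per gene symbol.

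Counts were scaled by TMM (edgeR 4.0.16, R 4.3.3). Ratios took exact Clopper-Pearson 95% intervals, and spread factors came from genes with a mean of 500 to 3000 reads. Log2 differences used a prior count of 2. The fit of day and treatment used edgeR's quasi-likelihood test after filterByExpr, with Benjamini-Hochberg adjustment. DESeq2 1.42.0, limma 3.58.1, other scalings, minimums and thinning were alternatives. The size rule, the spread-adjusted rule and edgeR's test for treatment were also run on simulated counts with known changes, and the outcome is not reported here. Python 3.11.15 with scipy 1.17.1 did the rest. Positions are from GENCODE M21 on GRCm38, the assembly of mm10.

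Named were all members, per pathway list the 2 most abundant genes and up to 2 with the largest called difference, and the 3 nearest profiles. Members and lists were chosen with earlier results of these data known. Some genes that the rule takes in are not reported here.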

Additional observations from a re-analysis of the deposited data

Results flagged for a closer look

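Bdnf and Gfra1 had ES to control differences of opposite sign on the 2 days, among members with at least 50 reads in a library of each pair. The difference between days was not tested, since each day had 1 library per treatment. Bdnf had a log2 difference of -0.73 at 19 DIV and 1.88 at 11 DIV. Gfra1 had -3.87 at 19 DIV and 0.02 at 11 DIV, the second of which was within counting error. The summed neuron markers were 0.418 times control at 19 DIV and 1.38 times at 11 DIV, and their part in these values was not tested.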

How the results depend on the processing

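Scaling by DESeq2 size factors, by total counts or by TMM without Rn45s, and thinning to the smallest total, left the number of members called by the size rule as it was in all 4 comparisons. The minimum of reads, the minimum fold and the interval changed it. For ES over control at 19 DIV the number called was 2 in the reported analysis, 1 with a minimum of 500 reads, 5 with a 1.5-fold minimum, 1 with a 3-fold minimum and 0 with the spread-adjusted interval. At 11 DIV it was 2, then 1 with 500 reads, 3 with no minimum of reads, 3 with a 1.5-fold minimum and 0 spread-adjusted. Between days it was 5 in ES ganglia, 3 with 500 reads, 3 with a 3-fold minimum and 0 spread-adjusted, and 3 in control ganglia, 2 with 500 reads, 4 with a 1.5-fold minimum, 2 with a 3-fold minimum and 0 spread-adjusted. The number of genes called by the fit over 4 libraries was 0 for both factors except with DESeq2, which called 509 for treatment and 843 for day. The day effect of Bdnf changed sign with limma and voom (-0.16, against 0.09). With the same tool the log2 day effects of Gfra1 (-1.41, against -2.84), Ntrk3 (8.65, against 6.57) and Ntrk2 (6.91, against 6.07) moved and kept their sign. So did the log2 ES effects of Gfra1 (-0.34, against -1.95), Ntrk3 (1.42, against 3.30) and Ntrk2 (-1.52, against -3.08). Each of these moves was over 1.5-fold when the fold changes are unlogged. The cause of these changes was not tested. Of 112 log2 differences of members under other scalings or thinning, 110 stayed within their counting intervals, and the other 2 were Ngfr with total counts (0.06 for ES over control at 11 DIV and 0.29 between days in control ganglia). Members under 200 reads in a library rest on fewer than 2 sampled molecules there. No paired analysis was possible because each group has 1 library and the labels give no replicate numbers, and for the same reason no replicate could be left out.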

Other observations

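Neuropoietic cytokines, the other family of neurotrophic factors, were represented by 13 genes. Between ES and control, 4 were higher and 1 lower of 8 tested at 19 DIV, and 2 higher and 3 lower of 9 at 11 DIV. Of all genes, 29.4% were called higher and 31.3% lower at 19 DIV, and 28.9% higher and 29.6% lower at 11 DIV, which also applies to the next list. Clcf1, a ligand of this family, reached 1116 reads in the ES and 0 in the control library at 19 DIV, and 835 and 173 at 11 DIV. Il11 had 676 and 348 reads in ES and control at 19 DIV and 950 and 1857 at 11 DIV, and Il11ra1 202 and 0, and 102 and 301.

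Factors and markers of the Trk and Ret neuron subtypes made a list of 15, of which 3 were higher and 2 lower of 11 tested between ES and control at 19 DIV, and 5 higher and 1 lower of 9 at 11 DIV. Pou4f1, a transcription factor of sensory neurons, reached 413 reads in the ES and 674 in the control library at 19 DIV, and 10 in ES and 0 in control at 11 DIV, the order of days seen in Ntrk2 and Ntrk3. Runx3, a factor of TrkC neurons, had 168 and 276 reads at 19 DIV and 0 in both libraries at 11 DIV; it fell outside the naming rule and was chosen after its values were seen. Isl1, another factor of sensory neurons, ran otherwise, with 0 reads in ES and 129 in control at 19 DIV, and 479 in ES and 31 in control at 11 DIV. Maf, a factor of mechanoreceptors, had 1101 and 1717 reads in ES and control at 19 DIV and 1270 and 938 at 11 DIV, and Nefh, a neurofilament of large neurons, 583 and 677, and 809 and 79.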
